A study of Mus musculus with 4 samples.

Results

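The 10 genes described here are 6 Wnt ligands (Wnt3, Wnt4, Wnt5a, Wnt7b, Wnt10a and Wnt10b) and 4 genes that report or tune the response to them (Lef1, Axin2, Lgr5 and Lgr6). They were taken by name, not by a measured value, but with earlier results of these data known. They are 10 of the 32285 genes counted. All 10 gave UMIs (unique molecular identifiers, 1 per captured RNA molecule) in all 4 single-cell libraries. The libraries came from digits of wild-type FVB/NJ mice aged 8 weeks. One library held unamputated tissue, and 1 library each was made 12, 17 and 28 days post-amputation (dpa) through the middle phalanx (P2), a level at which the digit does not regenerate. Each library pooled male and female animals, per the labels, so the spread between animals is not known. Cells were freed by enzymes (trypsin, then collagenase), and a sort on propidium iodide kept the live ones after lysis of erythrocytes.

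Wnt ligands are secreted, lipid-bearing proteins that bind Frizzled receptors with an Lrp or Ror partner. In the canonical branch, beta-catenin then enters the nucleus and acts with TCF/LEF factors such as Lef1, and Axin2 is a target that also restrains the signal. Lgr5 and Lgr6 are receptors for R-spondins, which keep Frizzled receptors on the surface, and they mark stem and progenitor cells of hair follicles, nail and other epithelia. Wnt5a is best known for signalling without beta-catenin. Nail and skin epithelium are known Wnt sources in the mouse digit tip.

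Promoter sequence was examined for TCF/LEF motifs because 2 of the genes, Lef1 and Axin2, are themselves read as responses to the pathway. RefSeq starts on GRCm38.p6 were matched by symbol for 6 of the 10 genes and gave 9 promoters. These are not 9 separate genes, since 4 belong to Lef1, and the first 2 of those overlap over most of their length. The core motif CTTTGA, or TCAAAG on the other strand, was in 1 of the 9 within the 250 bases before the start. The same motif was in 13.8% of 32851 mouse promoters. The longer form CTTTGAT was in 0 of the 9 and in 3.21% of all, and it overlaps the core. The motif TATAAA was in 1 of the 9 and in 12.4% of all, with both strands searched. One RefSeq start of Lef1 lies inside the gene, 46.0 kb after the first start, and no GENCODE M21 transcript starts there. The promoter that held the motif matches was that of this inner start. It is shown with the promoter of the first Lef1 start and that of Axin2, each 5′ to 3′ on the plus strand, with TCF/LEF core matches and the TATA match in capitals.
Lef1, inner start, chr3:131156044-131156293: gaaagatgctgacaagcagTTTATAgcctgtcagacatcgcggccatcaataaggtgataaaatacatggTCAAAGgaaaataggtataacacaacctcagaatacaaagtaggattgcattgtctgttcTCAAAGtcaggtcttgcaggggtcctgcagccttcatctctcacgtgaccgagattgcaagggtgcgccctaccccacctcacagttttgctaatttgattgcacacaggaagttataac
Lef1, first start, chr3:131110047-131110296: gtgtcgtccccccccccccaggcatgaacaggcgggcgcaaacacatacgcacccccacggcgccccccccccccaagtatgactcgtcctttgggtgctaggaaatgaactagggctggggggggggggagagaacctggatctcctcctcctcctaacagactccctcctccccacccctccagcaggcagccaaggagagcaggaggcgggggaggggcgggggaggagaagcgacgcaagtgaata
Axin2, chr11:108920099-108920348: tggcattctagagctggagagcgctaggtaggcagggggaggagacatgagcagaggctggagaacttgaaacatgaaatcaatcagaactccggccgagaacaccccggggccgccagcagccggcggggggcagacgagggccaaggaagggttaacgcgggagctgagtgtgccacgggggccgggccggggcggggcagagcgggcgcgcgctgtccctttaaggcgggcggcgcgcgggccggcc
The inner Lef1 promoter held 2 core matches, and neither other sequence held any. Reads from the 3′ end of a transcript cannot tell which start was used, so the Lef1 levels below are sums over all starts.

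Wnt10a, Wnt3 and Wnt10b lie beside another Wnt gene on mm10. The first of these, Wnt10a (chr1:74791516-74804179, plus strand) starts 6.19 kb after the end of Wnt6 on the same strand. Wnt3 (chr11:103774150-103817957, plus strand) and Wnt9b are 24.3 kb apart on opposite strands. Wnt10b (chr15:98770712-98778150, minus strand) and Wnt1 are 11.7 kb apart on opposite strands. Of the other ligands, Wnt4 lies at chr4:137277489-137299726, Wnt5a at chr14:28504750-28527448 and Wnt7b at chr15:85535437-85582473. Lgr5 spans chr10:115450311-115587780 and Lgr6 spans chr1:134983301-135105276, both on the minus strand.

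The libraries held 8813 to 16045 barcodes and 92313847 to 197140774 UMIs, and 34952 cells passed the filters. Median depth per kept cell was 11630, 9545, 8511 and 6654 UMIs in the unamputated, 12, 17 and 28 dpa libraries. Between 0.2156% and 0.5704% of the barcodes of the smaller library were shared by any pair of libraries. The labels give both sexes for every library, and the data went against this: 0 cells at 12 dpa were called male from Y-linked UMIs, against 77.8%, 58.4% and 47.1% in the unamputated, 17 and 28 dpa libraries. Of the cells called female, 3534 were from 12 dpa and 1 was from the other libraries. At 12 dpa, time and sex therefore cannot be told apart. Each group was 1 library, so no difference has a replicate check and no test was possible. Intervals are exact 95% Poisson or Clopper-Pearson intervals and cover counting error only. For a count of 0, the limit given is that of 3 counts, not the upper end of such an interval.

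Levels are in CPM, the UMIs of a gene summed over the cells of a class in 1 library, scaled to a common total of UMIs. They are given in the order unamputated, 12, 17 and 28 dpa. A class with under 50 cells in a library has no value there, so fewer than 4 values means that the library is missing. Levels were compared between classes and libraries, not between genes. Classes carry the names of their markers. Clusters 9 (Krtap8-1, Krt15), 10 (Chad, Igf2) and 24 (Hcn4, Foxd1) passed no naming rule and are called by number and leading genes. Cluster 9, with hair keratins among its leading genes, was pooled with the keratinocyte-like cells. A summed level does not tell fewer expressing cells from less RNA per cell.

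Wnt3 and Wnt4 were largely epithelial in every library, and Wnt10a and Wnt7b in most. Keratinocyte-like cells made up 13.2% of the kept cells and held 98% of the Wnt3 UMIs, 94.2% of the Wnt4 UMIs, 77.4% of the Wnt10a UMIs and 75.7% of the Wnt7b UMIs. They held 85.7% of the Lgr6 UMIs, 48.4% of Lgr5 and 47.9% of Lef1. By library, in the order unamputated, 12, 17 and 28 dpa, their share was 84.5%, 88.8%, 47.1% and 83.9% for Wnt10a and 85.2%, 69.3%, 53.6% and 87.8% for Wnt7b, lowest at 17 dpa for both. It was 60.6%, 25.1%, 28.1% and 58.8% for Lgr5 and 46.4%, 34.9%, 36.7% and 70.6% for Lef1, lower at 12 and 17 dpa than in the 2 other libraries. Keratinocyte-like cells were themselves 14.5%, 9.52%, 8.68% and 17.8% of the kept cells, fewest at 12 and 17 dpa. These shares of UMIs therefore also move with the number of cells. Wnt5a lay more in stroma, with 41.3% of its UMIs over the 4 libraries in tenocyte-like cells and 11.8% in keratinocyte-like cells. By library, tenocyte-like cells held 38.3%, 75.9%, 20.1% and 7.71% of the Wnt5a UMIs and fibroblast-like cells 9.87%, 3.8%, 29% and 48.4%, so the tenocyte-like share was the larger in the unamputated and 12 dpa libraries and the smaller at 17 and 28 dpa. There were 665, 1792, 316 and 356 tenocyte-like and 601, 263, 1406 and 2117 fibroblast-like cells. Wnt10b was split, with 45.7% in fibroblast-like and 28% in keratinocyte-like cells over the 4 libraries. By library, fibroblast-like cells held 25.8%, 16.1%, 53% and 64.1% of the Wnt10b UMIs and keratinocyte-like cells 43.5%, 54.8%, 14.9% and 18.3%, so the larger share was keratinocyte-like in the unamputated and 12 dpa libraries and fibroblast-like at 17 and 28 dpa. Averaged over libraries, 5 of the 10 genes (Wnt3, Wnt4, Wnt7b, Lgr5 and Lgr6) had their highest level in a keratinocyte-like class. That count was 9 of 10 when each cell was named alone by its markers. No share of all genes stands beside this count, so it is not set apart from them. Lgr5 is in it through cluster 9, which passed no naming rule. The next Lgr5 averages were 78.9 CPM in cluster 10 and 60.2 CPM in tenocyte-like cells, with basal keratinocyte-like cells at 14.4 CPM.

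**Figure D1:**
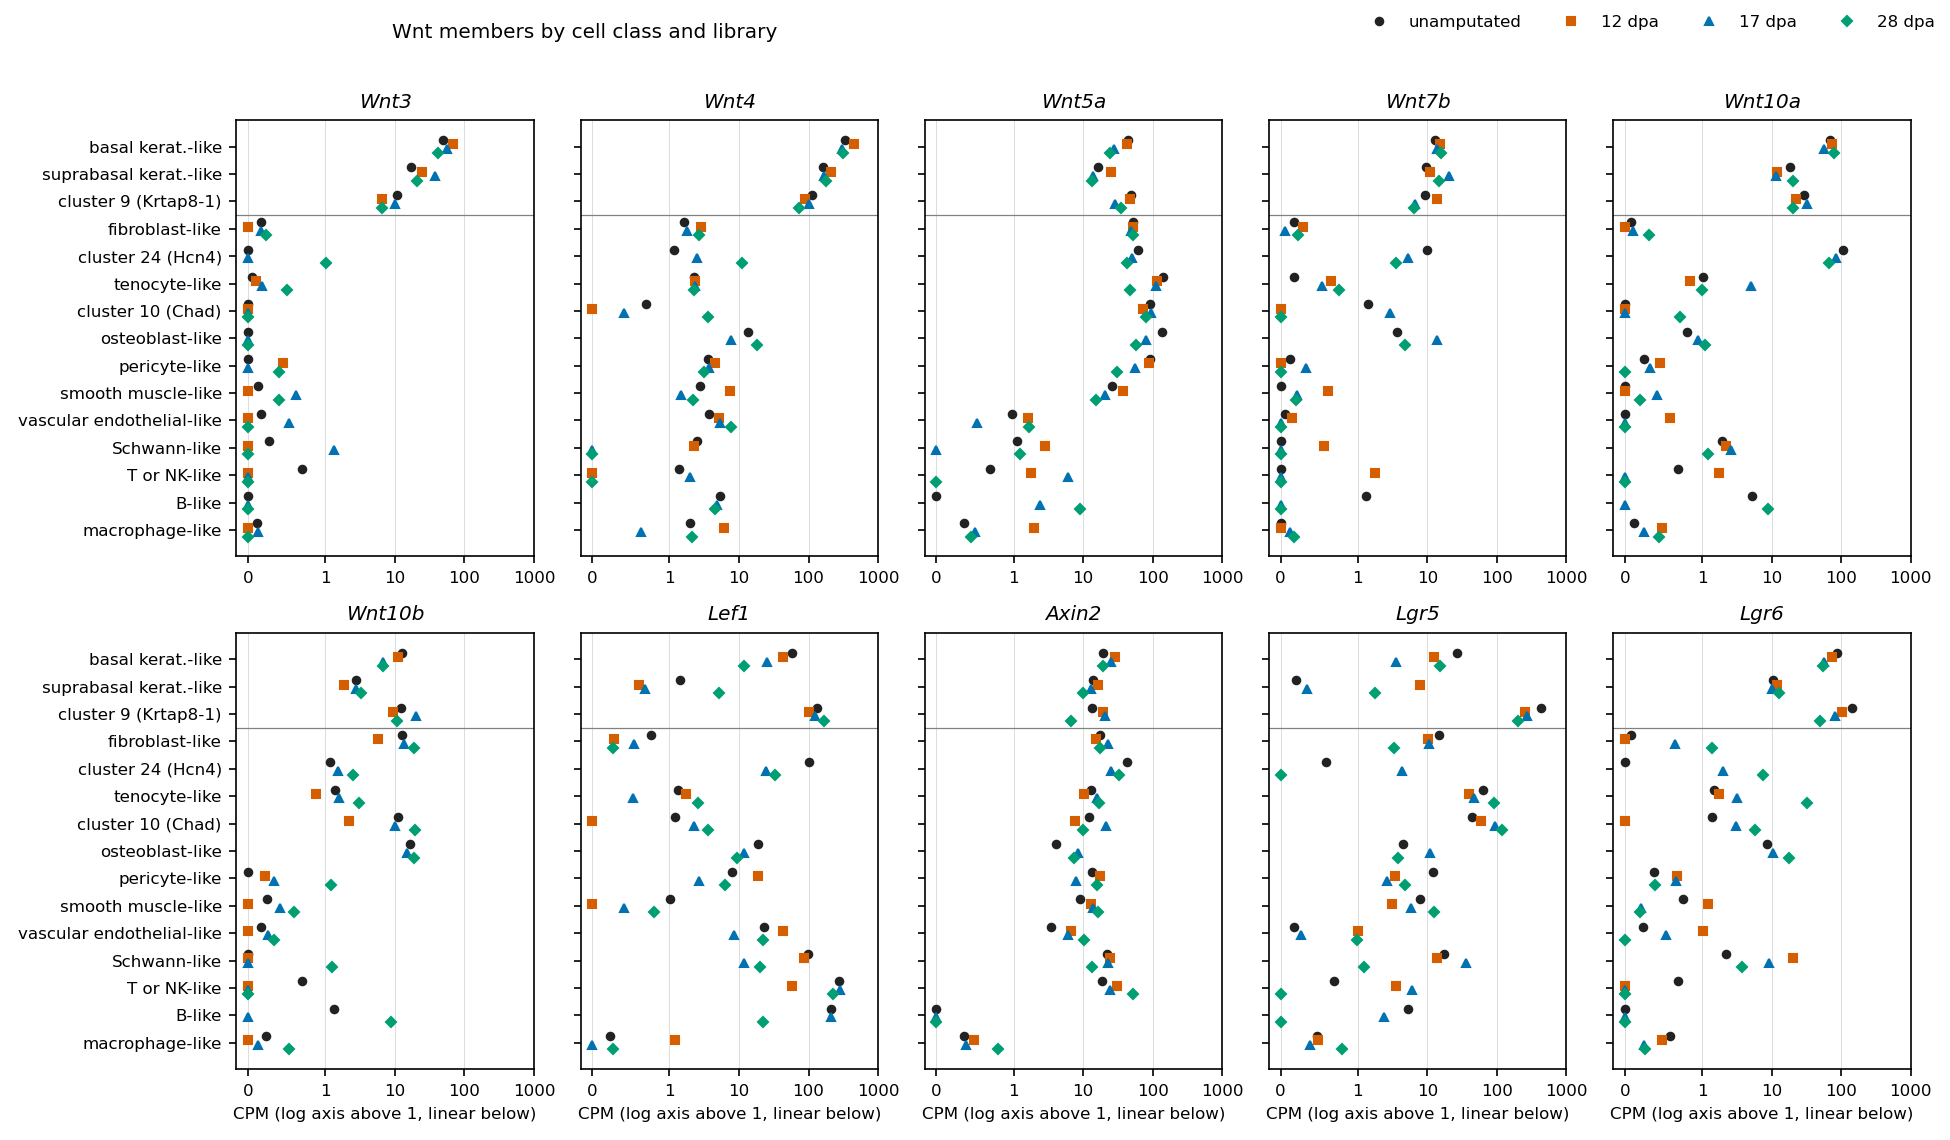
Level of each gene in CPM (x axis, logarithmic above 1 and linear below) in 15 cell classes (y axis), with 1 point for each library of at least 50 cells in the class. Above the grey line are the keratinocyte-like classes, where Wnt4 reaches 448 CPM, whereas its highest level below the line is 17.9 CPM, in osteoblast-like cells. Wnt5a reaches 139 CPM in tenocyte-like cells.

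Wnt4, a ligand with roles in kidney, gonad and skin, was highest in basal keratinocyte-like cells at 339, 448, 305 and 317 CPM. Suprabasal keratinocyte-like cells had 161, 208, 169 and 179.9 CPM and cluster 9 had 114, 88.7, 103 and 73.2 CPM. The intervals of these 3 classes did not overlap in any of the 4 libraries, so the order basal, suprabasal, cluster 9 held throughout. After thinning every cell to 2000 UMIs, the share of basal cells with a Wnt4 UMI was 43.4%, 55.9%, 41.9% and 42.3%, and 91.5%, 93.8%, 88.4% and 87.3% without thinning. Macrophage-like cells, taken as the background class, had 0.268%, 1.79%, 0.12% and 0.492% after thinning and 2.0%, 3.99%, 0.594% and 1.52% without. Outside the epithelium the highest level was in osteoblast-like cells, at 13.3, 7.75 and 17.9 CPM in the unamputated, 17 and 28 dpa libraries. The summed basal keratinocyte markers in those osteoblast-like cells were 30.5, 55.4 and 195 CPM, against 12746 to 14455 CPM in keratinocyte-like cells, and their part in the osteoblast-like value was not tested.

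Wnt3, a ligand of the early embryo and of skin and gut epithelium, followed the same order. Its level was 49.7, 69.4, 55.5 and 41.7 CPM in basal and 17.1, 24.5, 37.9 and 20.6 CPM in suprabasal keratinocyte-like cells, with intervals apart in all 4 libraries. The suprabasal level at 17 dpa was 2.22 times the unamputated one (1.73 to 2.83), whereas the basal ratio was 1.12 (0.961 to 1.29). No class outside the keratinocyte-like ones averaged more than 1 CPM. Of 447 to 1424 thinned macrophage-like cells per library, 0 had a Wnt3 UMI. A limit of 3 cells puts the share with a UMI at this depth at up to 0.671% in the smallest library.

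Wnt10a, a ligand needed for hair, nail and tooth, was found in basal cells and in cluster 24. Basal keratinocyte-like cells had 69.8, 74.4, 56.6 and 78.7 CPM. Cluster 24 had 106, 83.8 and 67.1 CPM in the unamputated, 17 and 28 dpa libraries, with 114, 412 and 289 cells. Cluster 24 was above the basal class beyond the counting intervals in the unamputated and 17 dpa libraries, and the intervals overlapped at 28 dpa. The share of cells with a UMI after thinning was 17.9%, 11.9% and 12.2% in cluster 24 and 14.9%, 16.7%, 8.63% and 13.9% in basal cells, against 0% to 0.224% in macrophage-like cells.

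Wnt7b, a ligand of epithelia and of osteoblast precursors, did not exceed 20.8 CPM in any of the main classes with at least 50 cells in a library. Basal cells had 12.7, 15, 13.7 and 15.7 CPM and suprabasal cells 9.44, 11, 20.8 and 14.8 CPM, and the intervals of these neighbours overlapped in all 4 libraries. At 17 dpa the suprabasal level was 2.2 times the unamputated one (1.57 to 3.08). Osteoblast-like cells had 3.64, 13.8 and 4.84 CPM in the unamputated, 17 and 28 dpa libraries, so the 17 dpa library stood above both others there.

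Within the keratinocyte-like cells, the members averaged highest in different subclusters. Of 13 subclusters, 11 had at least 50 cells over the 4 libraries, and they are called by their leading genes. Wnt3, Wnt4, Wnt7b and Wnt10a all averaged highest in the Sox6 and Tspear subcluster, with Wnt3, Wnt4 and Wnt10a at 72.6, 443 and 80.7 CPM. Wnt7b there was 18.3, 18.3, 25.9 and 17.5 CPM. The Cdkn3 and Cdc20 subcluster averaged next for Wnt7b, at 18 CPM on 36 UMIs in 2 libraries. For Wnt10a the Krt6b and Krt16 subcluster was next, at 70.5 CPM on 72 UMIs in 1 library. Both are close to the Sox6 and Tspear averages and cover fewer libraries, so these orders are not resolved. Lgr5 averaged highest in the Plcl1 and Tagln subcluster (699 CPM), where Wnt3 was at 1.88 CPM and Wnt4 at 51.9 CPM over the pooled libraries. Lgr6 averaged highest in the Pparg and Adamts18 subcluster (119.8 CPM) and next in the Sox6 and Tspear subcluster (95 CPM). The Lgr6 intervals of these 2 were apart in the unamputated library and overlapped at 12, 17 and 28 dpa. In the pooled libraries, the small Fxyd2 and Chrm3 subcluster of 95 cells had Lgr6 at 238 (205 to 274) CPM.

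The Krt25 and Krtap8-1 subcluster, whose leading genes named it hair or nail matrix-like, held 83% of the Lef1 UMIs of keratinocyte-like cells. Its Lef1 level was 520.4, 322 and 499 CPM in the unamputated, 12 and 28 dpa libraries, from 97, 57 and 113 cells. Wnt10b also averaged highest there among the subclusters, at 41.2, 22 and 30.8 CPM. Wnt5a in the same cells was at 142, 118 and 98.3 CPM. The Krt6b and Krt16 subcluster, of keratins known from wounded skin, had Wnt5a at 142 (119.8 to 167) CPM in the unamputated library, the only one with 50 of its cells. Both were above the Sox6 and Tspear subcluster, where Wnt5a was 24.5 (21.8 to 27.3) CPM over the pooled libraries.

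**Figure D2:**
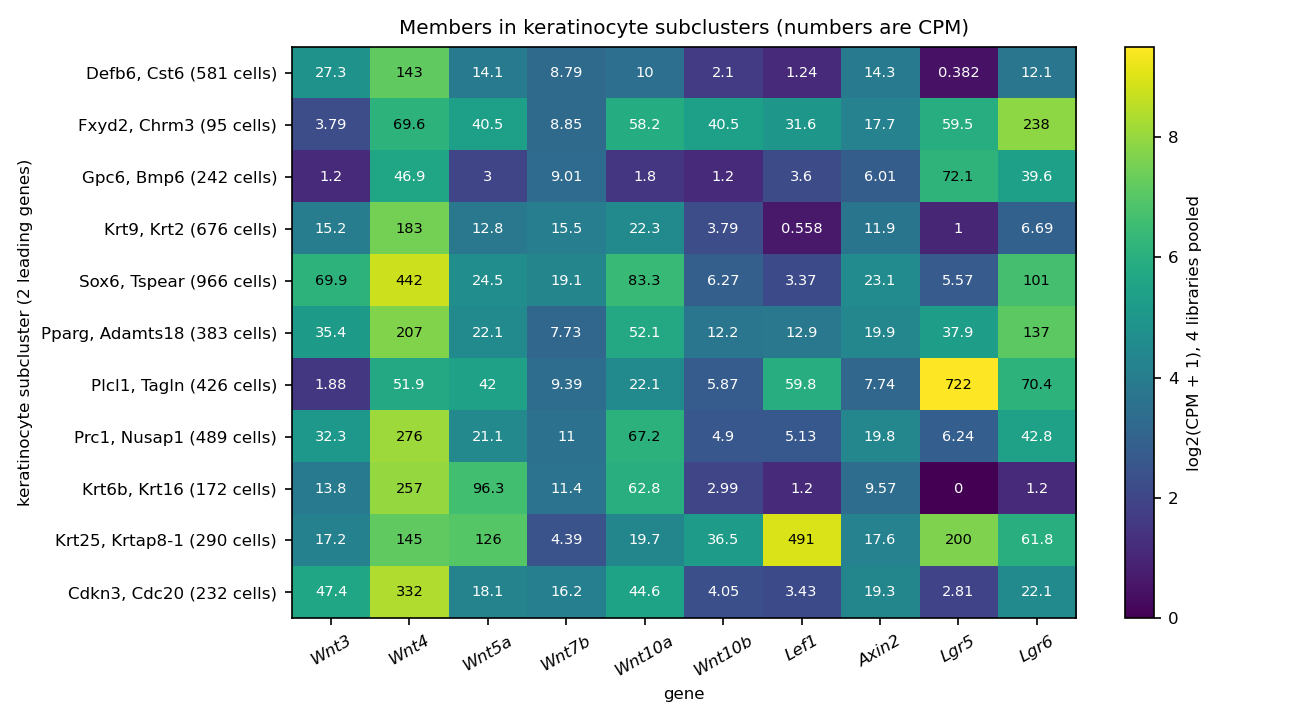
Level of each gene (columns) in 11 keratinocyte subclusters (rows, with their 2 leading genes and cell numbers), summed over the 4 libraries. Colour is log2(CPM + 1) and the printed numbers are CPM: Lgr5 is at 722 CPM in the Plcl1 and Tagln row, Lef1 at 491 CPM in the Krt25 and Krtap8-1 row and Wnt4 at 442 CPM in the Sox6 and Tspear row.

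Single cells of the matrix-like subcluster were not alike. Of its 94 cells with an Lgr5 UMI, 59.6% (49 to 69.6%) also had a Lef1 UMI, and of the 196 without Lgr5, 83.7% (77.7 to 88.6%) did. The wider class did not show this order: of all keratinocyte-like cells, 22% of those with Lgr5 and 6.69% of those without had Lef1. That pair mixes the subclusters. In the Pparg and Adamts18 subcluster the shares were 18.8% and 7.52%, and in the Plcl1 and Tagln subcluster 17.8% and 10.6%, with overlapping intervals in each. The Plcl1 and Tagln cells with Lgr5 were also deeper, at 9141 against 5782.5 UMIs. For Lgr6 in the matrix-like subcluster, the order was the reverse of that for Lef1, with 43.6% of the Lgr5 cells (33.4 to 54.2%) and 9.69% of the others (5.94 to 14.7%). Median depth was 15452 UMIs in the cells with Lgr5 and 13862 in those without. Of 70 cells with a Wnt10b UMI, 95.7% had Lef1, against 69.5% of the 220 others, which were shallower (13998 against 18361 UMIs). In the Sox6 and Tspear subcluster, 65.2% of the 480 cells with Wnt3 also had Wnt10a and 53.1% of the 486 others did, with 14111 and 10756 UMIs per cell. Cells of 1 library are not replicates, and these pairs pool the 4 libraries.

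Among the stromal classes with at least 50 cells in a library, Wnt5a averaged highest in tenocyte-like cells, then in osteoblast-like cells, cluster 10 and pericyte-like cells. Tenocyte-like cells had 139, 117, 111 and 46.5 CPM, so 3 libraries were above 100 CPM and the 28 dpa library stood below all of them. Osteoblast-like cells had 136, 79.2 and 57.7 CPM in the unamputated, 17 and 28 dpa libraries, and pericyte-like cells had 91.3, 89, 56.3 and 31.1 CPM. Cluster 10, with Chad and Comp among its leading genes, had 91.5, 72.1, 93.9 and 79.9 CPM. Fibroblast-like cells had 52.7, 52.2, 49 and 52.2 CPM, and their 4 intervals overlapped.

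The 28 dpa ratio of Wnt5a to the unamputated library was 0.335 (0.286 to 0.389) in tenocyte-like, 0.425 (0.355 to 0.507) in osteoblast-like and 0.34 (0.266 to 0.43) in pericyte-like cells. A gene is called here when it reaches 5 CPM in either library, the ratio of CPM + 1 is 2-fold or more and the interval of the ratio excludes 1. By this rule 13.1%, 14.4% and 6.21% of all genes were called in these 3 classes at 28 dpa, and Wnt5a was called lower in each. The classes themselves differed between the libraries. Summed tenocyte markers in tenocyte-like cells were 1521 CPM in the unamputated and 4614 CPM in the 28 dpa library, and summed division markers were 115 and 66.9 CPM. Summed osteoblast markers in osteoblast-like cells were 10979 and 24951 CPM. The part of these in the Wnt5a values was not tested.

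A dermal papilla-like cluster of 68 cells, of which 42 were from 28 dpa, had too few cells for values by library. Summed over the libraries, it had Wnt5a at 401 (341 to 468) CPM, Lef1 at 364 (307 to 428) CPM and Axin2 at 115 (83.9 to 153) CPM. Lgr5, Wnt4, Wnt7b and Wnt10b had 0 UMIs there, and a limit of 3 counts allows up to 7.47 CPM each. Dermal papilla cells are the mesenchyme at the base of hair follicles and a known target of epithelial Wnt.

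Wnt10b, a ligand known for bone formation and hair growth, was at 16.4, 14.9 and 18.6 CPM in osteoblast-like cells of the unamputated, 17 and 28 dpa libraries. Fibroblast-like cells had 12.8, 5.76, 13.4 and 18.9 CPM, cluster 9 12.1, 9.26, 20.3 and 10.7 CPM and cluster 10 11.1, 2.18, 9.99 and 19.4 CPM. In the unamputated library the intervals of these 4 classes overlapped, so their order is not resolved. Among fibroblast-like cells, cluster 19, with Ccn3, Scara5 and Pi16 among its leading genes, had 18, 6.26, 17.9 and 21.8 CPM, and cluster 18 had 6.38, 5.96 and 6.21 CPM in the unamputated, 17 and 28 dpa libraries. The fibroblast-like class at 12 dpa was mostly cluster 19 (230 of 263 cells), against 292 of 601 in the unamputated library. Its lower Wnt10b at 12 dpa, with a ratio of 0.451 (0.268 to 0.722), was also seen within cluster 19, at 0.348 (0.205 to 0.563). In the whole class the call was lost with looser cell filters, without removal of doublets, at a finer clustering, with ratios centred on the median gene and with clusters named by best class alone, where the log2 ratios were -0.83, -0.80, -0.86, -0.80 and -0.98.

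**Figure D3:**
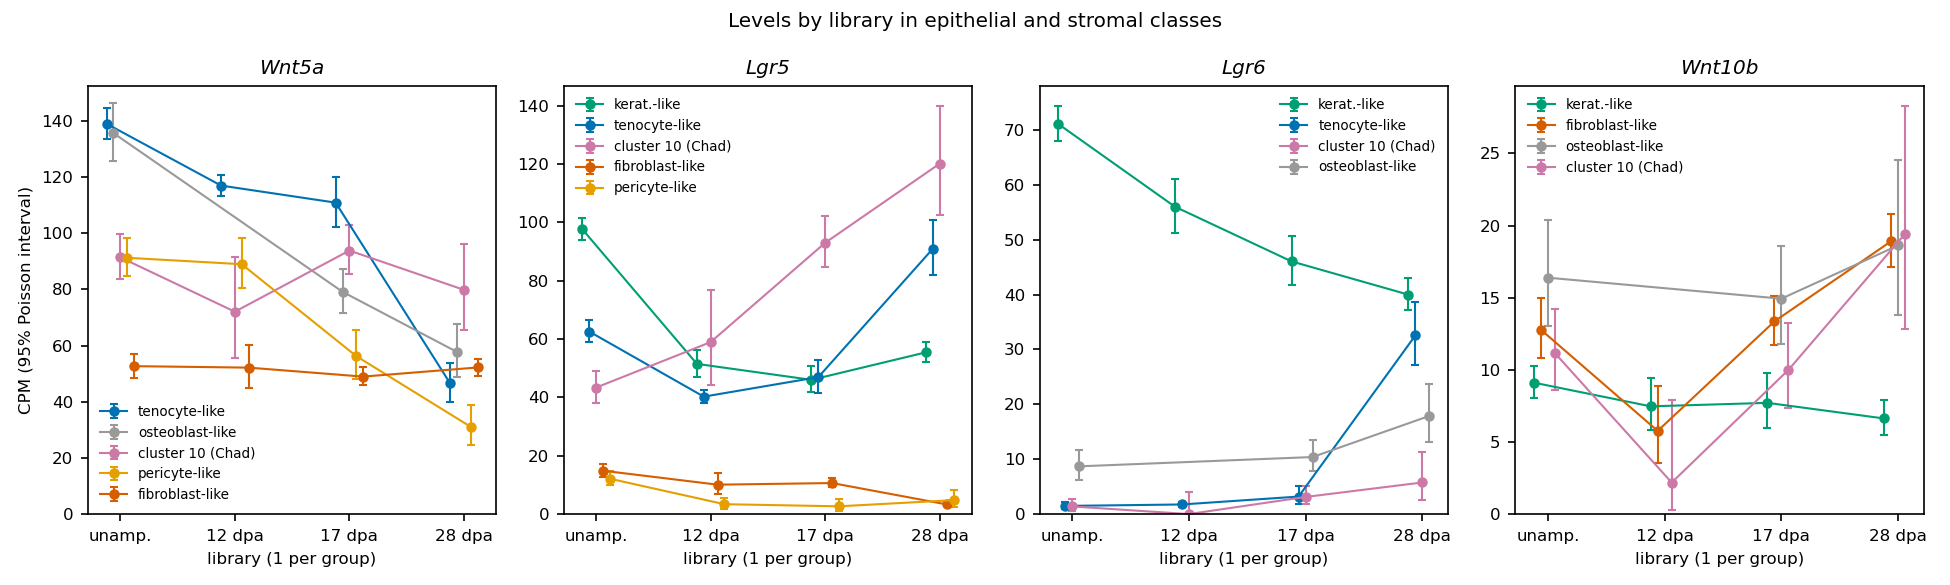
CPM (y axis) of Wnt5a, Lgr5, Lgr6 and Wnt10b in each library (x axis) for the classes named in the keys, with 95% Poisson intervals as bars and lines joining the libraries that have at least 50 cells. Wnt5a in tenocyte-like cells goes from 139 CPM unamputated to 46.5 CPM at 28 dpa, while Lgr6 in the same cells goes from 1.49 to 32.5 CPM.

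Cluster 24 had several Wnt genes together. It was led by Hcn4, Foxd1, Fgl2 and Stra6 and made up 1.1%, 0.461%, 5.2% and 2.85% of the kept cells, with 30 cells at 12 dpa. Its summed fibroblast markers were 31494, 27050 and 23589 CPM in the unamputated, 17 and 28 dpa libraries, under those of fibroblast-like cells (47766 CPM at the lowest). Its summed basal keratinocyte markers were 835, 1085 and 1123 CPM, against 44.1 to 123 CPM in fibroblast-like cells. Wnt6, the neighbour of Wnt10a, was at 122, 147 and 153 CPM. The 2 neighbours did not share all their classes, because Schwann-like cells had Wnt6 at 49.5, 46.9, 91.4 and 90.4 CPM and Wnt10a at 1.95, 2.23, 2.65 and 1.24 CPM. Among the main classes with at least 50 cells in a library, Axin2 averaged highest in cluster 24, at 42.2, 25 and 32.3 CPM. This was below the pooled level in dermal papilla-like cells given above. T or NK-like cells averaged next, at 31.3 CPM on 67 UMIs and from 18.8 to 52.1 CPM by library, so their order against cluster 24 is not resolved. Lef1 in cluster 24 was at 101, 24.5 and 32.8 CPM. Lef1 was called lower in cluster 24 at 17 dpa (0.242, 0.187 to 0.311) and 28 dpa (0.323, 0.239 to 0.433), where 4.24% and 7.11% of all genes were called.

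Lgr5 was highest in cluster 9 and next in cluster 10 and tenocyte-like cells. Cluster 9 had 430.4, 257, 267 and 201 CPM, so the unamputated library was above every later one. The make-up of cluster 9 differed between the libraries: the Plcl1 and Tagln subcluster was 42.8% of its cells unamputated and 30.1% at 28 dpa, and the Gpc6 and Bmp6 subcluster, with Lgr5 at 51.5 CPM and Lgr6 at 36.6 CPM at 28 dpa, was 9.71% and 30.5%. The Plcl1 and Tagln subcluster had 869 (829 to 910.5) CPM unamputated and 529.8 (493 to 568) CPM at 28 dpa, and 64.8% and 60.2% of its thinned cells had an Lgr5 UMI (86.7% and 83.7% without thinning). Its 28 dpa ratios were 0.61 for Lgr5 (0.56 to 0.664) and 0.695 for Lgr6 (0.519 to 0.923), and neither met the calling rule. The matrix-like subcluster had 281, 124 and 86.8 CPM in the unamputated, 12 and 28 dpa libraries, and its ratio at 28 dpa was 0.309 (0.253 to 0.376). Its summed hair or nail matrix markers were 1521 CPM unamputated and 6579 CPM at 28 dpa, and their part in the Lgr5 value was not tested. The Plcl1 and Tagln subcluster made up 11.1%, 6.13%, 6.4% and 9.89% of keratinocyte-like cells, and held 66.5% of their Lgr5 UMIs.

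In the stroma, tenocyte-like cells had Lgr5 at 62.6, 40.3, 47 and 91 CPM and cluster 10 at 43.4, 59, 93 and 120.2 CPM. The cluster 10 values rose in this order, but the unamputated (38.2 to 49.1) and 12 dpa (44.3 to 77.0) intervals overlapped. The 17 dpa level depended in part on the cell with the most Lgr5 UMIs, as given below. At 28 dpa the cluster 10 ratio was 2.77 (2.26 to 3.38), with 9.75% of all genes called. Summed cartilage or joint markers in cluster 10 were 313, 365, 731 and 1191 CPM, and their part in the Lgr5 value was not tested. Fibroblast-like cells had 14.9, 10.1, 10.6 and 3.32 CPM. The lower Lgr5 at 28 dpa was in both fibroblast-like clusters, at 17.4, 17 and 3.97 CPM in cluster 18 (unamputated, 17 and 28 dpa) and 12.8, 10.3, 6.69 and 3.17 CPM in cluster 19. The thinned share of macrophage-like cells with an Lgr5 UMI was 0%, 0.447%, 0.361% and 0%.

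Lgr6 was highest in cluster 9 and basal cells. Cluster 9 had 144, 103, 81.7 and 49.6 CPM and basal keratinocyte-like cells 86.7, 73.1, 57.5 and 54.3 CPM, so both classes were highest in the unamputated library. The Pparg and Adamts18 subcluster had 172, 126, 94.6 and 86.7 CPM. Tenocyte-like cells had 1.49, 1.75, 3.19 and 32.5 CPM, and the 28 dpa level was 21.9 times the unamputated one (14.3 to 34.8). Without thinning, 1.65%, 1.28%, 3.8% and 12.9% of tenocyte-like cells had an Lgr6 UMI, and 0.458%, 0.0561%, 0.968% and 3.37% after thinning, against 0%, 0.224%, 0% and 0.0702% of thinned macrophage-like cells. Summed suprabasal keratinocyte markers in tenocyte-like cells were 96.1 CPM unamputated and 452 CPM at 28 dpa. In keratinocyte-like cells at 28 dpa those markers were 14870 CPM and Lgr6 was 40.0 CPM. The part of these markers in the tenocyte-like value was not tested. In cluster 10 and osteoblast-like cells, Lgr6 at 28 dpa was 5.76 (2.49 to 11.3) and 17.9 (13.2 to 23.7) CPM.

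Lef1, the nuclear partner of beta-catenin, is also a known lymphocyte factor. Among the main classes with at least 50 cells in a library it averaged highest in T or NK-like cells, at 273, 57.2, 282 and 223 CPM. The matrix-like subcluster and the dermal papilla-like cells, which are not among those classes, were higher. The 12 dpa library stood below the 3 others in T or NK-like cells. Summed T or NK markers were 2848, 4034, 2690 and 2707 CPM in these cells and summed macrophage markers 57.7, 304, 38 and 123 CPM, and their part in the value was not tested. B-like cells averaged next, at 212.2, 212.2 and 22.3 CPM in the unamputated, 17 and 28 dpa libraries. Of their 160 unamputated UMIs, 76 were in 1 cell, and the unamputated level was 114 CPM without it. Without that cell B-like cells averaged below cluster 9, which averaged 131.5 CPM. Schwann-like cells had 97.4, 87.1, 11.9 and 19.8 CPM, a split between the 2 earlier and the 2 later libraries, from 270, 246, 104 and 166 cells. Lef1 was called lower in Schwann-like cells at 17 and 28 dpa. Vascular endothelial-like cells had 22.7, 43.1, 8.46 and 21.8 CPM.

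In basal keratinocyte-like cells Lef1 was 57.4, 43.5, 25.1 and 11.7 CPM, and it was called lower at 17 and 28 dpa. This order rested on few cells. The basal class held 42, 20, 5 and 22 cells of the Plcl1 and Tagln and the matrix-like subclusters, and these held 92.6%, 87.8%, 83.3% and 79.6% of its Lef1 UMIs. Without them the basal level was 4.76, 5.8, 4.27 and 2.51 CPM. Basal Lgr5 rested on the same cells, which held 69.1%, 57.4%, 43.8% and 87.4% of its UMIs. The basal Lgr5 level was 26.5, 12.5, 3.53 and 15 CPM with them and 9.25, 5.8, 2.02 and 1.98 CPM without them, so the 17 and 28 dpa libraries were then alike. In cluster 9 Lef1 was 134, 102, 125 and 165 CPM, and the 28 dpa library was the highest.

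For Axin2, a target and brake of the pathway, basal keratinocyte-like cells had 19.1, 28.9, 25.1 and 19.3 CPM, fibroblast-like cells 17.4, 15.3, 22.7 and 17.5 CPM, tenocyte-like cells 12.9, 10.1, 15.9 and 17 CPM and pericyte-like cells 13.5, 17.4, 7.99 and 15.9 CPM. In the unamputated library the intervals of the basal and fibroblast-like classes overlapped, and so did those of tenocyte-like and pericyte-like cells. Averaged over libraries, T or NK-like cells were at 31.3 CPM and Schwann-like cells at 20.7 CPM. Macrophage-like cells were low, at 0.352, 0.487, 0.379 and 0.8 CPM. Vascular endothelial-like cells had 3.47, 6.69, 6.08 and 10.2 CPM, and the 28 dpa ratio of 2.96 (1.85 to 4.63) met the calling rule.

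Set against the unamputated library, 0 or 1 members were called per comparison in the 2 main classes as wholes. With so few members, these counts are not set apart from the shares of all genes given beside them. In keratinocyte-like cells all 10 members reached 5 CPM. At 12, 17 and 28 dpa 0, 1 and 0 of them were called, where 2.48%, 2.22% and 3.78% of all genes were. The 1 call was Lgr5, lower at 17 dpa with 97.7, 51.5, 46 and 55.5 CPM over the 4 libraries and a ratio of 0.471 (0.424 to 0.523). The Plcl1 and Tagln subcluster, with 66.5% of these UMIs, was a smaller share of the class at 17 dpa than unamputated. Without it, Lgr5 was 37.8, 20.1, 19.6 and 13.3 CPM, so the unamputated library was still the highest. The ratios of the whole class at 12 and 28 dpa, 0.527 and 0.568, lay just outside the threshold, and the 17 dpa call was lost in 5 alternatives with log2 ratios from -0.98 to -0.85 (looser and stricter cell filters, the mean of single cells, ratios centred on the median gene and equal weight of clusters). With stricter filters Wnt5a was called lower in its place. Lgr6 was lower in all 3 later libraries without a call, at 71.1, 56, 46 and 40.0 CPM. Wnt4 at 12 dpa was 1.31 times the unamputated level (1.25 to 1.37), with Wnt4 at 231, 302, 227 and 215 CPM.

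In fibroblast-like cells 4 members reached 5 CPM (Wnt5a, Wnt10b, Axin2 and Lgr5), and 6 did not. At 12, 17 and 28 dpa 1, 0 and 1 of the 4 were called, where 8.63%, 2.23% and 9.49% of all genes were. Wnt10b was lower at 12 dpa, as above, a call that ended when the 1 cell with the most Wnt10b UMIs was left out (log2 ratio -0.99). Lgr5 was lower at 28 dpa, with a ratio of 0.223 (0.167 to 0.295), from 14.9 to 3.32 CPM. That call was lost when fibroblast-like, tenocyte-like and cluster 10 and 24 cells were pooled (log2 ratio -0.98). Summed fibroblast markers in the class were 69129 CPM unamputated and 47766 CPM at 28 dpa, and summed suprabasal keratinocyte markers 187 and 679.6 CPM. Their part in the result was not tested. Among male-called cells alone, the counts at 17 and 28 dpa were 1 and 0 in keratinocyte-like and 0 and 1 in fibroblast-like cells, the same as over all cells.

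Many calls in single classes depended on 1 cell. In the classes listed here and in the 2 main classes there were 51 calls of members, and 21 of them ended when the cell with the most UMIs of the gene was left out of the library with the higher level. In basal cells, where 3.09%, 2.97% and 5.21% of all genes were called at 12, 17 and 28 dpa, Lgr5 was lower at 12 and 17 dpa and Lef1 at 17 and 28 dpa, with the few cells described above holding 43.8% to 92.6% of these UMIs in each library compared. The 12 dpa Lgr5 call ended without 1 cell (log2 ratio -0.58). In suprabasal cells (4.81%, 3.78% and 5.64%), Wnt3 and Wnt7b were higher at 17 dpa, with UMIs in 62 and 49 cells. Lgr5 at 12 dpa and Lef1 at 28 dpa also met the rule there, but on 26 UMIs in 3 cells, 23 of them in 1 cell, and on 30 UMIs in 6 cells, 24 of them in 1 cell. Both calls ended without that cell.

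In cluster 9 (7.55%, 5.64% and 7.18%), Lgr5 and Lgr6 were lower at 28 dpa. Cluster 10 (7.23%, 4.04% and 9.75%) had Wnt10b lower at 12 dpa and Lgr5 higher at 28 dpa. Lgr5 in cluster 10 was also called higher at 17 dpa, where 78 of 447 UMIs were in 1 cell. Without it the level was 77 CPM and the call ended (log2 ratio 0.81). The Lgr6 call at 28 dpa in cluster 10, from 6 cells, ended likewise (4.33 CPM without 1 cell). In cluster 24 at 28 dpa Wnt4 and Lgr6 were also called higher, and Wnt7b lower with a call that ended without 1 cell (17 UMIs).

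In tenocyte-like cells (0.952%, 2.86% and 13.1%), Lgr6 was higher and Wnt5a lower at 28 dpa, and a Wnt10a call at 17 dpa ended without 1 cell, at 4.27 CPM. Osteoblast-like cells (7.75% and 14.4% at 17 and 28 dpa) had Wnt7b higher at 17 dpa and Wnt5a lower at 28 dpa. Their Lgr5 call at 17 dpa rested on 57 UMIs in 17 cells, 11 of them in 1 cell, and ended without it (log2 ratio 0.84). In pericyte-like cells (3.96%, 2.14% and 6.21%), Lef1 was higher at 12 and lower at 17 dpa, and Wnt5a was lower at 28 dpa. Lgr5 was called lower there at all 3 times, at 12.1, 3.39, 2.66 and 4.78 CPM, but the unamputated level rested on 95 UMIs in 12 cells, 76 of them in 1 cell. Without it the unamputated level was 2.43 CPM, below each later library, and the 3 calls ended.

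In Schwann-like cells (4.71%, 6.69% and 9.1%), Lef1 was lower at 17 and 28 dpa. Lgr6 was called higher at 12 dpa on 36 UMIs in 4 cells, 23 of them in 1 cell, and Lgr5 lower at 28 dpa against 62 UMIs in 12 cells, 30 of them in 1 cell, and these 2 calls remained without that cell. The calls of Lgr5 and Lgr6 at 17 dpa, from 10 and 6 cells, ended. In T or NK-like cells (12.6%, 12.2% and 12.8%), Lef1 was lower at 12 dpa, and Axin2 was called higher at 28 dpa from 6 cells, a call that ended without 1 of them. In vascular endothelial-like cells (1.55%, 1.96% and 5.93%), Lef1 was lower at 17 dpa and Axin2 higher at 28 dpa. In B-like cells Lef1 was called lower at 28 dpa (10.4% of all genes), a call that remained without 1 cell (log2 ratio -2.30).

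The calls in the remaining classes all ended without 1 cell; the keratinocyte subclusters and single fibroblast-like clusters were not part of this count. They were Lef1 lower in lymphatic endothelial-like cells at 12 dpa (4.12% of all genes called), with 25 of 27 unamputated UMIs in 1 cell, and Wnt4 higher in macrophage-like cells at 12 dpa (4.3%). Smooth muscle-like cells at 12 dpa (4.04%) had Wnt4 higher and Lgr5 lower. Neutrophil-like cells (32.3% and 23.9% at 12 and 28 dpa) had Lgr5 higher at 12 dpa on 3 UMIs and Axin2 higher at 28 dpa on 2 UMIs.

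**Figure D4:**
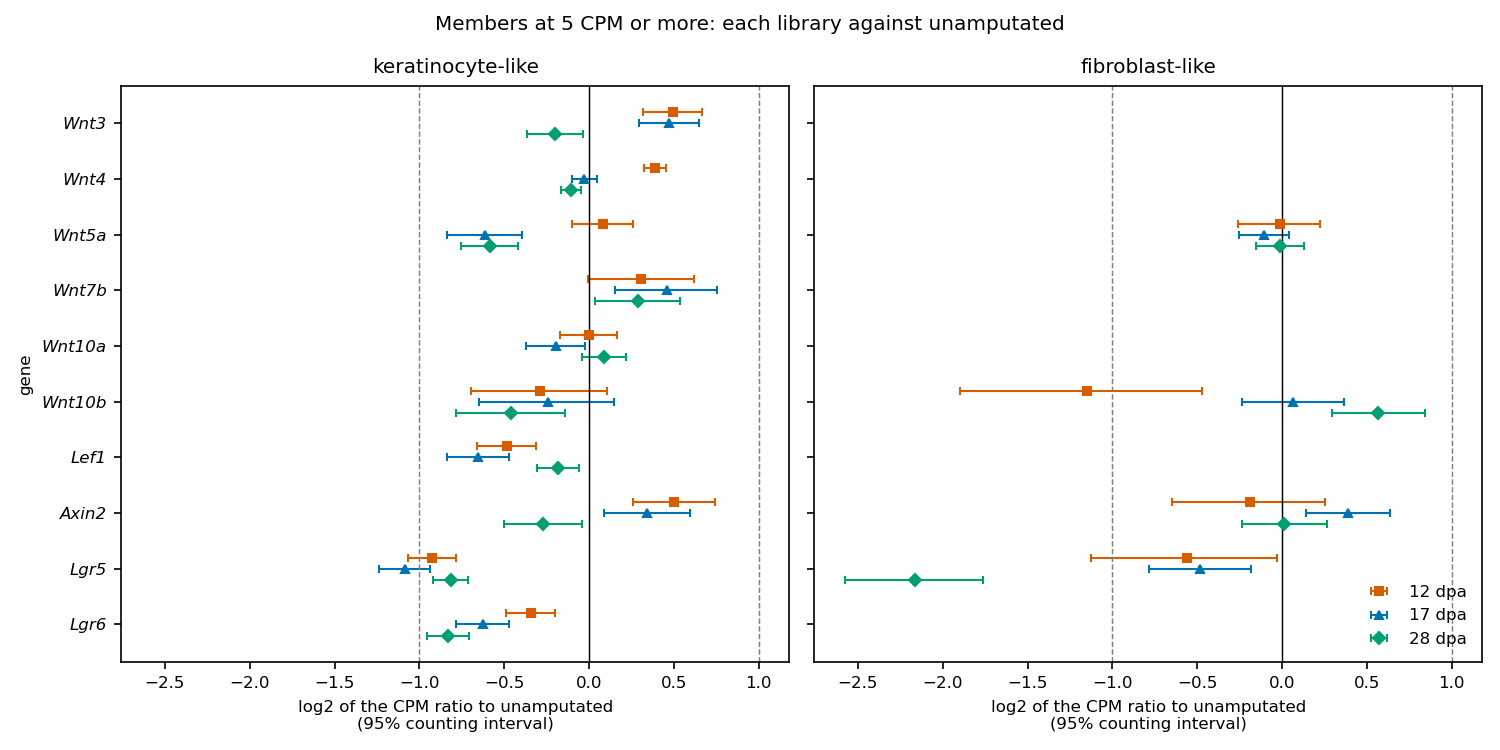
log2 of the CPM ratio to the unamputated library (x axis) for the members that reach 5 CPM (y axis) in keratinocyte-like and fibroblast-like cells at 12, 17 and 28 dpa, with 95% counting intervals as bars and dashed lines at a 2-fold difference. Most points lie between the dashed lines, and Lgr5 at 28 dpa in fibroblast-like cells lies farthest out.

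Other genes of the pathway were counted in 7 lists of 75 genes, chosen with earlier results of these data known. In fibroblast-like cells at 28 dpa, 3 of 14 measured receptors were called lower and 0 higher, with a median log2 ratio of -0.72 against -0.13 over all genes. Of all genes in these cells at 28 dpa, 6.88% were called lower and 2.6% higher, and with lists this small 1 gene moves a share by a large step. The 3 were Ror1, a Wnt5a receptor, at 192, 107, 143 and 91 CPM, Fzd6 at 44.2, 22.2, 23 and 20.4 CPM and Fzd3 at 10.9, 7.78, 9.07 and 4.59 CPM. Of 4 measured genes of the R-spondin axis, 2 were called lower at 28 dpa. Rspo3, a ligand of Lgr5 and Lgr6, was at 14.2, 5.76, 6.03 and 3.45 CPM and was called lower in all 3 later libraries. Rspo2, another such ligand, was at 21.8, 23.9, 16 and 6.68 CPM. Lgr4, the broadly used R-spondin receptor, was at 66.3, 44.7, 61.3 and 61 CPM with no call.

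Among the pathway targets in fibroblast-like cells, 2 of 8 measured were called higher at 28 dpa and 0 lower. Ccnd1, a cyclin of early cell cycle, was at 11.5, 20.2, 12.4 and 47.1 CPM, and Apcdd1, a membrane inhibitor of Wnt, at 10.1, 14.4, 17.1 and 29 CPM. Summed division markers in these cells were 12.9, 23.9, 8.74 and 10.2 CPM, lower at 28 dpa than unamputated. Of 6 secreted antagonists measured at 28 dpa, 2 were called lower, Sfrp1 at 103, 57.9, 73 and 44.5 CPM and Sfrp2 at 120.4, 80.4, 86.6 and 23.5 CPM. Sfrp4 was called higher at 17 dpa, at 65.9, 82.1, 171 and 108 CPM. Of the other ligands, Wnt5b was called lower at 28 dpa (59.8, 33.7, 30.1 and 20.5 CPM) and Wnt16 at 12 dpa (17.6, 6.63, 10.6 and 23.2 CPM), and Wnt9a had no call at 79, 87.9, 61.8 and 77.4 CPM. In the beta-catenin core, Bcl9, a cofactor of beta-catenin, was called lower at 12 and 28 dpa, at 32.4, 15.6, 22.3 and 14 CPM. Wls, which carries Wnt ligands to the cell surface, had no call, at 475, 397, 405 and 434 CPM.

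In keratinocyte-like cells at 28 dpa 2 of 4 measured antagonists were called lower, where 2.46% of all genes were: Sfrp1 at 75.6, 45.7, 49.5 and 37 CPM and Sostdc1, an inhibitor of Bmp and Wnt in follicle and tooth, at 181, 130.0, 159 and 82.7 CPM. Znrf3, the ligase that removes Frizzled receptors and is held back by R-spondins, was called lower at 28 dpa, at 303, 259.7, 208 and 146 CPM. Of the receptors, 0 of 13 measured were called at 12, 17 or 28 dpa, where 2.48%, 2.22% and 3.78% of all genes were, so at this list size the count is not set apart from all genes. At 12 dpa Wnt5b was called lower (29.3, 11.7, 21 and 15.1 CPM) and Sfrp2 higher (0.463, 5.16, 1.45 and 0.278 CPM). Summed fibroblast markers in keratinocyte-like cells were 279, 780.3, 576 and 544 CPM, highest at 12 dpa, and their part in the Sfrp2 value was not tested.

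The genes whose levels were most like each member across 77 pairs of class and library, over 21 classes and among 12751 genes, were named by Pearson correlation of log2(CPM + 1). Classes share libraries and depth, so these values are a description. Wnt3 was most like Pak6 (0.96), Hoxc11 (0.95) and Cdcp1 (0.95), and Wnt4 most like Cdcp1 (0.93), Ripk4 (0.93) and Ckmt1 (0.93). Wnt5a was most like Ror2 (0.92), Plekhh2 (0.92) and Sh3rf3 (0.92), of which Ror2 is a Wnt5a receptor. For Wnt7b they were Fras1 (0.89), Sh3rf2 (0.86) and 9330162012Rik (0.85), for Wnt10a Tenm2 (0.90), 2010300C02Rik (0.89) and Bmp7 (0.88) and for Wnt10b Ism1 (0.85), Ackr4 (0.84) and Slc6a2 (0.83). Lgr5 was most like Cybrd1 (0.81), Lhx2 (0.80) and Ism1 (0.79), so Ism1 was named for both Lgr5 and Wnt10b. Lgr6 was most like Dlx3 (0.87), Fermt1 (0.86) and Vsnl1 (0.85). The closest genes were less alike for Lef1 (Vgll4 (0.77), Tnik (0.74) and Ctcf (0.74)) than for Wnt3, and those of Axin2 were Rora (0.85), Lrig1 (0.84) and Prickle2 (0.84).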

How the data were processed

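The authors deposited counts of UMIs for each gene and barcode of 10x 3′ v3 libraries. Per the submitters' processing notes, Cell Ranger 7.1.0 and mm10 were used. Cell-calling settings are not given in the sources used here. Coordinates are from GENCODE M21 (GRCm38).

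Barcodes under 500 genes or 1000 UMIs, or over 10% mitochondrial UMIs, were dropped, after removal of the highest Scrublet scores at 0.8% per 1000 barcodes (7.05% to 12.8% of barcodes). All libraries were clustered jointly in scanpy 1.11.5 (10000 UMIs per cell, 2000 variable genes, 30 components, 15 neighbours, Leiden resolution 1) without the members, pathway lists, sex-linked and mitochondrial genes. The 29 clusters were named when 3 markers were detected in at least 25% of cells, the mean marker z score reached 1.5 and the 10 leading genes held no more markers of another class. Keratinocyte-like cells were clustered again at resolution 0.5.

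UMIs were summed by class and library, with a pseudocount of 1 CPM for log2 ratios. The calling rule was checked on simulated Poisson counts with planted changes. Those counts carry no spread between cells, so the check does not cover calls that rest on few cells. No test was run, since each group held 1 library. Named genes were the members, list genes called in fibroblast-like or keratinocyte-like cells, the highest gene of each list, and the 3 genes most like each member.

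The members and lists were chosen with earlier results of these data known. The z score minimum (which left cluster 24 unnamed), the pooling of cluster 9 with keratinocyte-like cells, the resolution of the subclusters, the pairs of genes in single cells, the splits of the basal class, cluster 9 and the keratinocyte-like class by subcluster, the count of cells behind each call, the motif letters (5 patterns were looked at and 3 kept) and 3 alternatives (1 of them leaving out the cell with the most UMIs of a called member) were chosen after the data were seen. Alternatives changed filters, doublets, clustering, naming, averaging, scaling, pseudocount, thinning and sex of cells.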

Additional observations from a re-analysis of the deposited data

Results flagged for a closer look

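Some members were called in opposite directions in 2 cell classes in the same comparison. Values are log2 ratios to the unamputated library, limited to calls with at least 20 CPM in either library, a limit set after the longer list had been seen. The differences between classes were not tested, and each class is 1 library at each time.

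At 17 dpa Lgr5 was lower in keratinocyte-like cells (-1.07) and in their basal class (-2.61), and higher in Schwann-like cells (1.01) and cluster 10 (1.08). The basal value compares 333 with 16 UMIs, of which 42 and 5 cells of the Plcl1 and Tagln and the matrix-like subclusters held 69.1% and 43.8%. Without those cells basal Lgr5 was 9.25, 5.8, 2.02 and 1.98 CPM in the unamputated, 12, 17 and 28 dpa libraries. In cluster 10, 78 of the 447 UMIs were in 1 cell. Without the 1 cell with the most Lgr5 UMIs, the cluster 10 and Schwann-like values were 0.81 and 0.61, both short of a call. The Schwann-like value is from 10 cells with a UMI among 104, and at 28 dpa the same class was at 1.24 (0.0313 to 6.9) CPM.

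At 28 dpa Lgr5 was lower in cluster 9 (-1.09) and higher in cluster 10 (1.45). Cluster 9 held different shares of its subclusters in each library, and in its main Lgr5 holder, the Plcl1 and Tagln subcluster, the value was -0.71, short of a call. Lgr6 at 28 dpa was lower in cluster 9 (-1.52) and higher in tenocyte-like cells (3.75). In that comparison 7.18%, 9.75% and 13.1% of all genes were called in cluster 9, cluster 10 and tenocyte-like cells.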

How the results depend on the processing

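No paired analysis was possible because each group held 1 library. For single members in fibroblast-like and keratinocyte-like cells, 553 of 574 alternative values kept their direction and side of the threshold, 13 lost a call, 8 gained one and 0 reversed. The counts of called members were small and moved easily. In fibroblast-like cells at 12 dpa the count of 1 went to 0 with looser cell filters, without doublet removal, at Leiden resolution 2, with centred ratios and with a 20 CPM minimum, to 2 with each cell named alone or clusters named by best class alone, and to 3 with all 4 stromal groups pooled. At 17 dpa 0 went to 1 with clusters named by best class alone. At 28 dpa 1 went to 0 with a 20 CPM minimum, to 2 with each cell named alone, without a low filter or with stroma pooled, and to 3 with best class alone. In keratinocyte-like cells at 12 dpa 0 went to 1 with looser or stricter cell filters or the mean of single cells. At 17 dpa 1 went to 0 with looser filters, the mean of single cells, centred ratios or equal weight of clusters, and stayed 1 with stricter filters, where the gene was Wnt5a (-1.12) and not Lgr5 (-0.98). At 28 dpa 0 went to 1 with stricter filters, the mean of single cells or equal weight. With each cell named alone, 9 rather than 5 members were highest in a keratinocyte-like class. Naming clusters by best class alone and pooling the stroma were added after the data were seen. Leaving out the cell with the most UMIs of a member, also added after the data were seen, ended 21 of 51 calls, among them Wnt10b in fibroblast-like cells at 12 dpa (-0.99). The cause of each move was not tested. Depth limits Wnt7b and Wnt10b most, with 1051 and 1826 UMIs in all kept cells.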

Other observations

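Ligands outside the 10 members had their own sites. Wnt6 averaged 141 CPM in cluster 24 and 69.5 CPM in Schwann-like cells. Wnt16 averaged 137 CPM in cluster 10 and 86.4 CPM in osteoblast-like cells, and Wnt5b 102 CPM in osteoblast-like cells. Wnt2 averaged 48.7 CPM in fibroblast-like cells and Wnt3a 17 CPM in basal keratinocyte-like cells. Rspo3, a ligand of Lgr5 and Lgr6, averaged 124 CPM in cluster 24 and 48.3 CPM in cluster 10. Cluster 24 was therefore the highest class for Wnt6, Wnt9a (116 CPM), Wnt10a, Rspo1 (19.3 CPM) and Rspo3 among the classes with values.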
